A study of Mus musculus with 3 samples.

Results

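Genes of the TNF superfamily, the ligands and receptors related to tumour necrosis factor, were read on 3 Affymetrix arrays of mouse bone marrow-derived dendritic cells. They were chosen by name. A probe set was taken where the platform annotation gave exactly 1 gene symbol that began with Tnfsf or Tnfrsf and a digit, or was Cd40, Cd70, Cd27, Fas, Fasl, Lta, Ltb, Ltbr or Eda2r, and Tnf itself was left out. This gave 58 of 45101 probe sets, for 36 of 18193 genes. The genes comprised 11 ligands, 24 receptors and Tnfsf13os, which is named as a transcript opposite Tnfsf13 and is neither.

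Dendritic cells are antigen-presenting cells, here grown from the marrow of female C57BL/6 mice 6 weeks old with GM-CSF at 20 ng/mL. The cells were those found nonadherent on day 7. All groups share this culture, and they differ in the next 24 h, spent with PBS (the control), with 1 µg/mL LPS (lipopolysaccharide of the bacterial outer membrane, sensed by Toll-like receptor 4) or with 100 ng/mL PTX. The labels leave PTX unexplained, so the abbreviation is kept, and for the PTX sample they write the strain as C57BL/7. Each group had 1 array, and the labels do not say whether the cultures came from 1 mouse or several. No difference therefore has a replicate check, no test was possible, and the number of arrays limits the precision.

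Ligands of this family are mostly trimeric proteins held in the cell membrane or released from it, and they bind receptors with cysteine-rich repeats on a neighbouring cell. Some receptors carry a death domain, through which they can recruit adaptors and caspases. Most others bind TRAF adaptors and activate the NF-kB transcription factors. Dendritic cells use the family in both directions, since T cells signal to them through Cd40 while their own ligands costimulate T cells or sustain B cells.

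The values are probe set intensities on a linear scale as deposited. Differences are on the log2(intensity + 16) scale, which shrinks those of dim probe sets, and a difference of at least 1 in size is called 2-fold. Each gene was read from whichever of its probe sets was brightest by mean log2 value, and it is called measured if that one came to an intensity of 78.9, the median of all noncontrol values, on at least 1 array. By this level 23 of the 36 genes were measured, 18 of them on all 3 arrays and 5 on 2.

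The LPS array stood apart. Its median intensity was 65.3, against 85.7 on the PBS array and 86.9 on the PTX array. The 18 bacterial hybridization controls differed by a median of 0.20 in LPS against PBS and of 0.01 in PTX against PBS. For 18S ribosomal RNA the 5′ control read 6788 (PBS), 1514 (LPS) and 9946 (PTX), and the 3′ control 1766, 2958 and 1970, so that the 3′ reading exceeded the 5′ reading on the LPS array alone of the 3. All values for LPS rest on this array, whereas the differences of PTX against PBS do not use its values. It did take part, with the others, in setting the measured level and in choosing the probe set of each gene. Among markers of dendritic cells 9 of 10 were measured, and the 10 summed to 32776 (PBS), 53943 (LPS) and 37946 (PTX). Itgax read 2383, 1691 and 1294, lower on both stimulated arrays, Cd74 read 6291, 10839 and 7057, higher on both, and Cd209a was under the measured level on each array. Flt3 read 62.1 on the PBS array, under the measured level, and 181 (LPS) and 253 (PTX) on the others. Zbtb46 read 236, 190 and 173, lower on both stimulated arrays.

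After LPS, 3 of the 23 measured genes read at least 2-fold higher than after PBS (Cd40, Tnfsf9 and Tnfsf13b) and 2 read at least 2-fold lower (Tnfsf10 and Ltb). The share of all 12299 measured genes was 6.5% for higher and 13.0% for lower genes, so the 21.7% of family genes that were apart in either direction lay near the 19.5% of all genes. After PTX, Tnfsf14 was at least 2-fold higher and Ltb at least 2-fold lower, 1 gene each, where 3.04% and 2.37% of all measured genes were, and 5.42% in either direction. The median difference of the family was -0.0018 in LPS against PBS (-0.08 over all measured genes) and 0.10 in PTX against PBS (0.01 over all). Both comparisons use the same PBS array. In total 17 genes were within 2-fold of PBS after both stimuli, between -0.67 and 0.98 after LPS and between -0.80 and 0.86 after PTX.

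**Figure D1:**
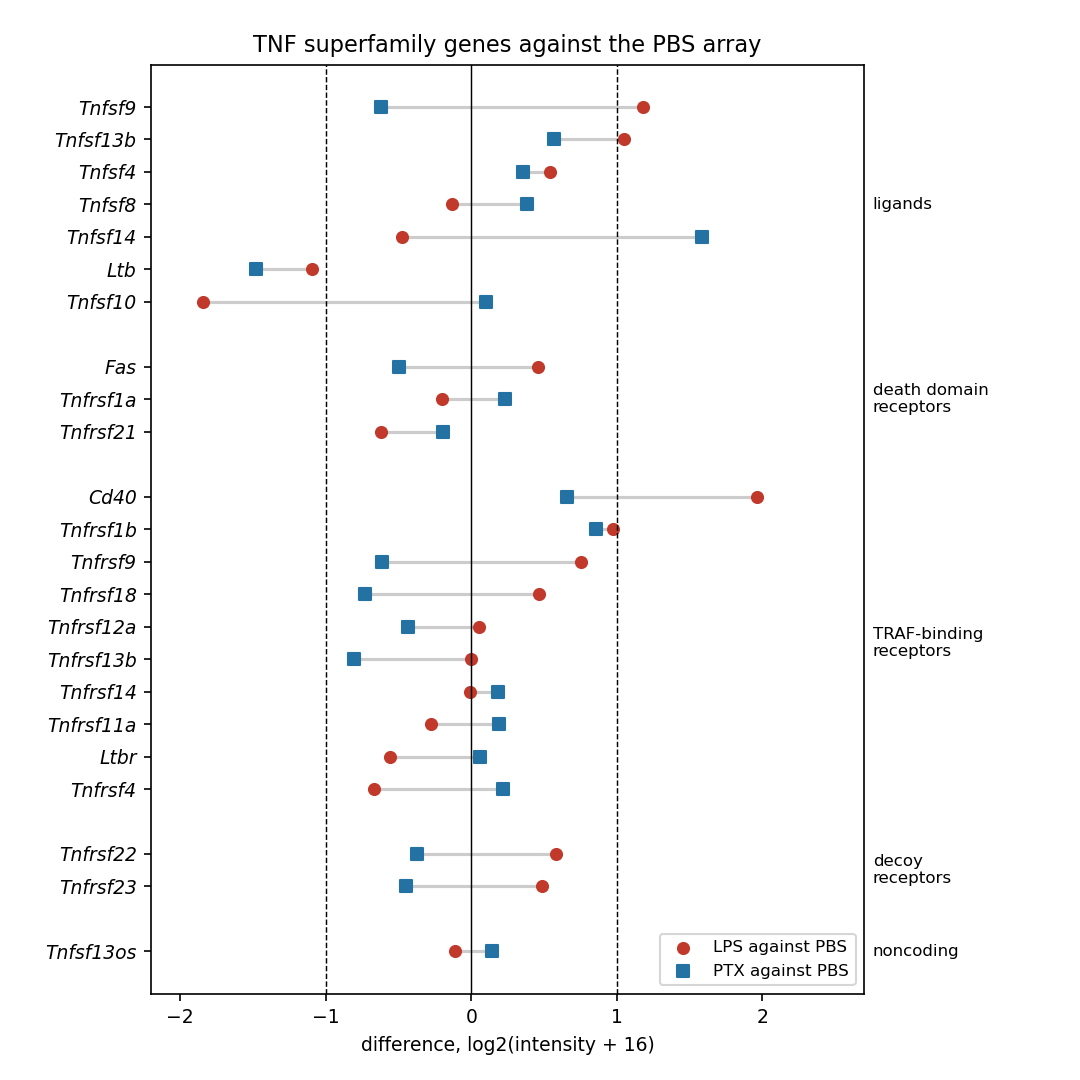
Differences from the PBS array of the 23 measured genes, on the log2(intensity + 16) scale, grouped by role, with circles for LPS and squares for PTX. Dashed lines mark 2-fold. Cd40, Tnfsf9 and Tnfsf13b lie beyond the right line for LPS and Tnfsf14 for PTX. Tnfsf10 lies beyond the left line for LPS and Ltb for both. Points show the probe set used for each gene.

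Of 15 ligands in the fixed list 11 had a probe set of their own and 7 were measured. After LPS 2 of the 7 were at least 2-fold higher and 2 lower (28.6% each, against 6.5% and 13.0% of all measured genes), and after PTX 1 was higher and 1 lower (14.3% each, against 3.04% and 2.37%). Tnfsf9 encodes the CD137 ligand, which costimulates T cells. It read 222 (PBS), 524 (LPS) and 139 (PTX), so that LPS was higher by 1.18 and PTX differed by -0.62. Its intensity was thus highest after LPS and lowest after PTX. The same order held for the summed intensity of 6 neutrophil markers (6567, 9983 and 4358 on the PBS, LPS and PTX arrays), of which S100a8 made up most. Of the 6 markers 4 were measured, and Mpo and Elane were under the measured level on each array. Camp, Ngp and S100a8 each had that order, whereas Ltf read 97.3, 38.6 and 78.6, lowest after LPS. The part of other cells in the result was not tested, and in such bulk samples fewer cells of a type and less RNA per cell cannot be told apart.

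Tnfsf13b encodes BAFF, a survival factor for B cells. It read 171 (PBS), 371 (LPS) and 262 (PTX), a difference of 1.05 for LPS and of 0.57 for PTX. The probe set behind these values is annotated to a RefSeq transcript. The gene's other measured probe set, annotated to another GenBank record, read 105 (PBS), 18.7 (LPS) and 149 (PTX), and so differed by -1.80 for LPS and by 0.45 for PTX. The direction for LPS is therefore not settled between the probe sets, and with the mean of both it was -0.37. For PTX both lie on the higher side of PBS, within 2-fold.

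Tnfsf14 encodes LIGHT, a ligand of Tnfrsf14 and Ltbr. It read 83.7 (PBS), 55.7 (LPS) and 284 (PTX). The PTX intensity stood above both others, by 1.59 over PBS and by 2.07 over LPS. The second probe set of the gene read 49.8, 49.3 and 96.6 in the same order, a difference of 0.77 for PTX that did not reach 2-fold. In the RefSeq order of coding genes Tnfsf14 lies next to Cd70, and Cd70 next to Tnfsf9. Cd70, the ligand of Cd27, was under the measured level, at 43.6 (PBS), 68.0 (LPS) and 44.5 (PTX). Across the arrays Tnfsf9 and the dim Cd70 each read highest after LPS, and Tnfsf14 read highest after PTX.

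Ltb encodes lymphotoxin beta, which anchors lymphotoxin alpha in the membrane to engage Ltbr. It read 202 (PBS), 85.9 (LPS) and 62.3 (PTX). It was lower than PBS after both stimuli, by -1.10 for LPS and by -1.48 for PTX, and was the 1 gene of the family called lower in both. The LPS difference came within 2-fold with a pseudocount of 64 (-0.83) and with each of the 3 other scalings (-0.78 with median centring, -0.76 with quantile normalization and -0.81 at the 75th percentile). Lta, its partner, was not measured (35.5, 31.9 and 39.7 on the PBS, LPS and PTX arrays). Ltb is made by lymphocytes as well, and of the T cell markers 2 of 6 with a probe set were measured, summing to 407 (PBS), 359 (LPS) and 463 (PTX). The 5 B cell markers with a probe set summed to 269, 186 and 257, and 1 of the 5 was measured. Cd79a, Cd79b, Ms4a1 and Pax5 were under the measured level on each array.

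Tnfsf10 encodes TRAIL, a ligand of death domain receptors. It read 254 (PBS), 59.2 (LPS) and 273 (PTX), so that LPS differed by -1.84 and PTX by 0.10. Its probe set annotated to a RefSeq transcript read 82.0, 40.3 and 122, with differences of -0.80 for LPS and 0.50 for PTX. Its remaining probe set, dim on every array, read 18.7, 66.1 and 63.2. The size of the LPS difference, and in the dim probe set its sign, thus varied with the probe set. Tnfsf4, the OX40 ligand of dendritic cells, read 135 (PBS), 204 (LPS) and 177 (PTX), within 2-fold. Tnfsf8, the CD30 ligand, read 92.9, 83.2 and 126, also within 2-fold. Fasl, the Fas ligand, and Tnfsf11, the RANK ligand, were not measured, with no reading of their brighter probe sets above 26.6.

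**Figure D2:**
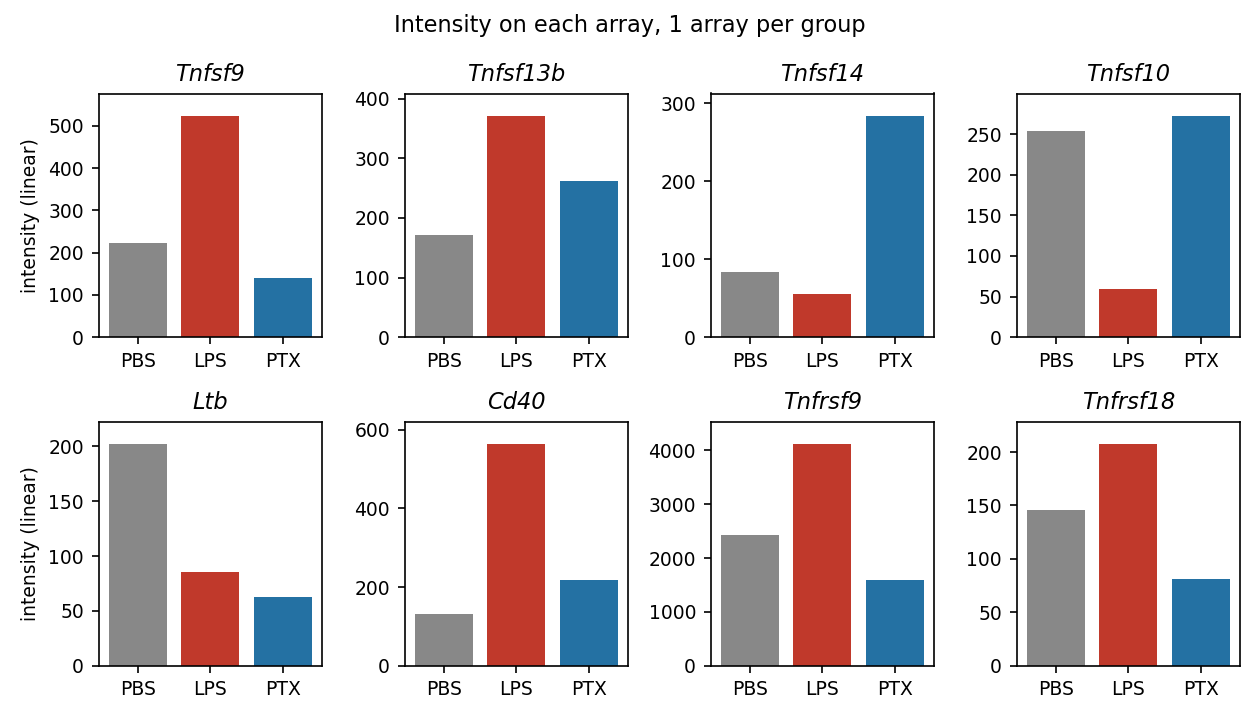
Intensity on the PBS, LPS and PTX arrays (linear axes from 0, 1 array per bar, a scale of its own in each panel) of the 8 genes that were at least 2-fold apart in any of the 3 comparisons. Tnfsf14 is highest on the PTX array at 284, and Tnfsf9, Tnfsf13b, Cd40, Tnfrsf9 and Tnfrsf18 are highest on the LPS array. Bars show the probe set used for the gene, and another measured probe set of Tnfsf13b and of Tnfrsf9 read lowest on the LPS array.

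To show what lies before the starts of these genes, 28 of the 36 were matched to RefSeq promoter windows (GRCm38.p6), 32 windows in all, and the 250 bases before each start were searched. Cd40, Tnfsf9, Cd70, Tnfsf4, Tnfrsf10b, Tnfrsf11b, Tnfrsf22 and Tnfsf13os had no entry. The motifs, sought on both strands and allowed to overlap, were a loose form of the NF-kB site (GGG, any 5 bases, then CC), the core of the interferon-stimulated response element (GAAA, any 2 bases, GAAA) and a STAT site (TTCNNNGAA). The NF-kB form stood in 21 of the 32 windows (65.6%, against 45.8% of 32851 windows of all genes), the interferon element in 4 (12.5% against 2.98%) and the STAT form in 8 (25.0% against 7.02%). Of the genes at least 2-fold from PBS, 4 had a window, and 2 of the 4 held the NF-kB form (Ltb and Tnfsf14), against 48.7% of all genes. The interferon element stood in 1 of the 4 (Tnfsf13b) and the STAT form in 1 (Ltb), against 3.46% and 8.13% of all genes. A match is a description of letters and not a bound site.

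The windows printed here are those of the genes at least 2-fold from PBS that held a motif, and that of Tnfrsf9, which was at least 2-fold apart between PTX and LPS and was added after its match was seen. Tnfrsf18 was also at least 2-fold apart between PTX and LPS. Its window, not printed, holds a STAT form 99 to 91 bases before the start and no other motif. Capitals mark the motif matches. Ltb (chr17:35194257-35194506, plus strand) holds an NF-kB form 87 to 78 bases before its start, GGAAAGTCCC, others between 40 and 29 bases, and a STAT form 172 to 164 bases before it. Tnfsf14 (chr17:57194182-57194431, minus strand) holds the NF-kB form in 3 places and neither of the others. Tnfsf13b (chr8:10006383-10006632, plus strand, the second of its 2 listed starts) holds GAAAGTGAAA 16 to 7 bases before that start, and its other window holds none of the motifs. Tnfrsf9 (chr4:150927749-150927998, plus strand, also the second of 2 starts) holds GGGGATTTCC and, overlapping it, GGGATTTCCC, 43 to 33 bases before the start, and a STAT form farther out. The other window of Tnfrsf9 holds none of the motifs.
Ltb: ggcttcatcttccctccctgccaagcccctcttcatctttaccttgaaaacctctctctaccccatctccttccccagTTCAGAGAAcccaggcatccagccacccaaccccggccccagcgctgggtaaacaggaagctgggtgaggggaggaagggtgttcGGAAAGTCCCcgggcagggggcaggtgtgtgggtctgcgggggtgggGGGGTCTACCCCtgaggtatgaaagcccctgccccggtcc
Tnfsf14: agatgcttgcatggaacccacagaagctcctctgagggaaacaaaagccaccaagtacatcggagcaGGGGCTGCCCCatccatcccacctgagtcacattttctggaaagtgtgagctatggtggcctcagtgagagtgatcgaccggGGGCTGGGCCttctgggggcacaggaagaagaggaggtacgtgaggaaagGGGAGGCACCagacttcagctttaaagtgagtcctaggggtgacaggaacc
Tnfsf13b: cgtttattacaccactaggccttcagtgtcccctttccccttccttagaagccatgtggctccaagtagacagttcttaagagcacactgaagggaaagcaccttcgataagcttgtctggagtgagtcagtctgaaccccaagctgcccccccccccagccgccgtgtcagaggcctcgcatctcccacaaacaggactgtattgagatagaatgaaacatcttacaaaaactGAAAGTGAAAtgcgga
Tnfrsf9: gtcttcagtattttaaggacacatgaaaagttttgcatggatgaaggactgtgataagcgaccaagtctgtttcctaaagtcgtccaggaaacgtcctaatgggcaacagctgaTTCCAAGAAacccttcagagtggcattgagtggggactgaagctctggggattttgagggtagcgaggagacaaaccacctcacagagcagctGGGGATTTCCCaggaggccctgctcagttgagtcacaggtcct
The window of Tnfsf10 held none of the motifs.

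Of 5 death domain receptors 3 were measured, and none was 2-fold from PBS after either stimulus. Fas, whose ligand triggers caspases, read 857 (PBS), 1187 (LPS) and 602 (PTX), differences of 0.46 and -0.50. Tnfrsf1a, the widely expressed TNF receptor, read 1853, 1611 and 2183. Tnfrsf21, also called DR6, read 1037, 670 and 904, a difference of -0.62 for LPS, but its other probe set differed by 0.11. Tnfrsf10b, the TRAIL receptor with a death domain, was not measured (36.4, 35.8 and 36.2), and nor was Tnfrsf25 (34.3, 23.5 and 37.0).

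Of 16 TRAF-binding receptors 10 were measured. Cd40, through which T cells license dendritic cells, read 132 (PBS), 564 (LPS) and 218 (PTX), and differed by 1.97 for LPS and by 0.66 for PTX. Its other probe sets read 82.9, 585 and 160, and 79.9, 699 and 114. All 3 were thus highest after LPS and lowest after PBS, with LPS differences of 1.97 to 2.90 and PTX differences of 0.44 to 0.83. All 3 can match several transcripts by their suffix, so Cd40 had no value once such probe sets were left out. By the probe set used for each gene and the values as deposited, Cd40 was the only receptor at least 2-fold from PBS in either comparison. Other probe sets of Tnfrsf9, given below, passed 2-fold.

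Tnfrsf1b, the second TNF receptor, read 2342 (PBS), 4627 (LPS) and 4259 (PTX), just under 2-fold at 0.98 and 0.86. Its LPS difference passed 2-fold with median centring (1.30) and with the 75th percentile set equal (1.27). Its dimmer probe set read 174, 327 and 194, which gave 0.85 for LPS and 0.14 for PTX. The probe sets lay close together for LPS and apart for PTX.

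Tnfrsf9, the receptor CD137 that binds the Tnfsf9 ligand, read 2432 (PBS), 4115 (LPS) and 1582 (PTX). LPS differed by 0.76 and PTX by -0.61, so like its ligand it was highest after LPS and lowest after PTX. A second probe set read 737, 1628 and 351, with differences of 1.13 and -1.04. The remaining, dimmer one read 78.3, 19.2 and 89.5, and lay the other way for LPS, at -1.42. It is the only probe set of Tnfrsf9 annotated to a RefSeq transcript, so the direction for LPS is not settled between the probe sets. The LPS difference of the probe set used passed 2-fold with median centring (1.08) and with the 75th percentile set equal (1.04). Tnfrsf18, or GITR, had the same order, 146 (PBS), 207 (LPS) and 81.6 (PTX), within 2-fold of PBS in both comparisons. Its neighbour on the chromosome, Tnfrsf4, which is the OX40 receptor, read 272, 165 and 319, lowest after LPS, with a difference of -0.67.

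Tnfrsf13b, or TACI, a receptor for BAFF, read 542 (PBS), 541 (LPS) and 304 (PTX), a difference of -0.0018 for LPS and of -0.80 for PTX. Of the other BAFF receptors, Tnfrsf13c was at 55.4, 39.1 and 53.5 and Tnfrsf17 at 25.7, 28.5 and 26.8, both under the measured level. Tnfrsf12a, the receptor of TWEAK, read 246, 256 and 178, and its other probe set lay within 2-fold as well. Ltbr, which receives Ltb and Tnfsf14, read 432, 288 and 451, a difference of -0.56 for LPS and 0.06 for PTX. Tnfrsf14, the other receptor of Tnfsf14, read 97.2, 96.8 and 113, and Tnfrsf11a, known as RANK, read 107, 85.7 and 125. None of these reached 2-fold from PBS.

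The mouse has TRAIL receptors that bind the ligand without a death domain, Tnfrsf22 and Tnfrsf23. Tnfrsf22 read 160 (PBS), 247 (LPS) and 120 (PTX), and its neighbour Tnfrsf23 read 95.4, 140 and 65.5. These probe sets were highest after LPS and lowest after PTX, within 2-fold of PBS. Of the 2 other probe sets of Tnfrsf22, 1 had that order as well (75.3, 100.0 and 51.5), and 1 was highest on the PBS array (138, 121 and 108), with a difference of -0.17 for LPS. The genes are closely related copies, so their probe sets may not tell them apart, which was not tested. The 1 probe set annotated to both read 483 (PBS), 293 (LPS) and 400 (PTX), lowest after LPS. Tnfrsf11b, the soluble RANK ligand receptor osteoprotegerin, was not measured, nor were Tnfrsf8, Tnfrsf19, Cd27 and Eda2r. Over the 13 genes that were not measured, the probe sets used read between 21.4 and 62.5 on the PBS array, between 18.5 and 69.3 on the LPS array and between 20.9 and 67.5 on the PTX array. Tnfsf13os was within 2-fold (84.3, 77.0 and 94.7).

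The genes with several measured probe sets numbered 10. In LPS against PBS their probe sets differed in sign for 6 of the 10, and for Tnfsf13b and Tnfrsf9 they were at least 2-fold apart in opposite directions. In PTX against PBS the signs differed for Tnfrsf9 alone of the 10. With the stricter demand that every measured probe set be at least 2-fold the same way, Cd40 and Tnfsf9 stayed higher and Ltb stayed lower after LPS, and of these Tnfsf9 and Ltb have 1 probe set each. This demand was added after the values had been seen.

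**Figure D3:**
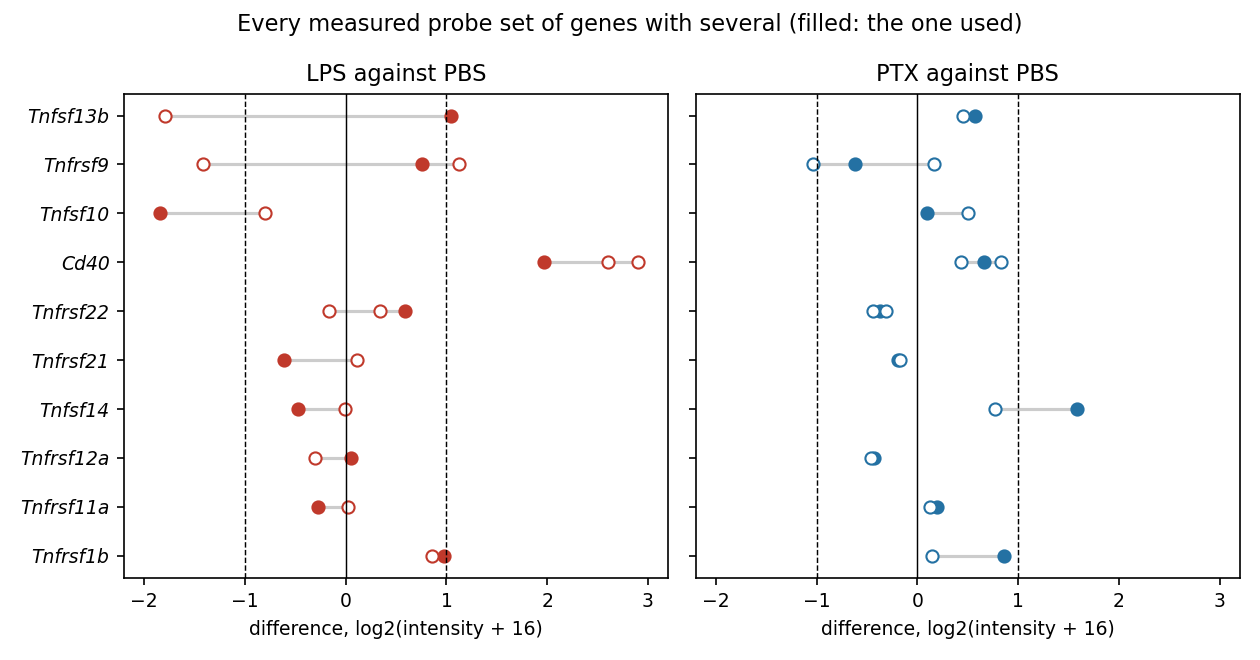
Differences from PBS of every measured probe set of the 10 genes with several, on the log2(intensity + 16) scale, with LPS at left and PTX at right. Filled points are the probe sets used for the gene. The 3 probe sets of Cd40 lie between 1.97 and 2.90 for LPS, whereas those of Tnfsf13b lie at 1.05 and -1.80.

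Set directly against each other, the stimulated arrays differed by at least 2-fold in 6 of the 23 genes (26.1%, against 19.9% of all measured genes). PTX read lower than LPS in 4 (Tnfsf9 -1.80, Tnfrsf9 -1.37, Cd40 -1.31 and Tnfrsf18 -1.19), which is 17.4% of the family against 6.24% of all measured genes. PTX read higher in Tnfsf14 (2.07) and Tnfsf10 (1.94), 8.70% of the family against 13.7% of all. The family median was -0.19 and that of all measured genes 0.09. For Tnfrsf9 the dimmest probe set again opposed the others, at 1.58, and the mean of all 3 gave -0.65, within 2-fold. Tnfrsf18 came within 2-fold with a pseudocount of 64 (-0.90). With median centring and with the 75th percentile set equal Fas, Tnfrsf13b, Tnfrsf22 and Tnfrsf23 joined the lower genes, which made 8 of the 25 then measured, while the share of all measured genes that were lower went up to 12.6% and 11.7%.

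The split of calls depended on the scaling between arrays. Among all measured genes past 2-fold between LPS and PBS, 33.3% were higher as deposited (799, with 1601 lower), 45.6% with quantile normalization, 55.4% with the 75th percentile set equal and 58.1% with median centring. Median centring moved the median over all measured genes from -0.08 to 0.27. In the family the counts went from 3 higher and 2 lower to 5 and 1 with median centring and with the 75th percentile, and to 3 and 1 with quantile normalization. Relative to all measured genes the family median was 0.08 as deposited, 0.11 with median centring and 0.23 with quantile normalization. In PTX against LPS the higher share of all calls was 68.7% as deposited and 40.5% with median centring. Cd40 and Tnfsf9 were at least 2-fold higher after LPS, and Tnfsf10 lower, under each of the 4 scalings.

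**Figure D4:**
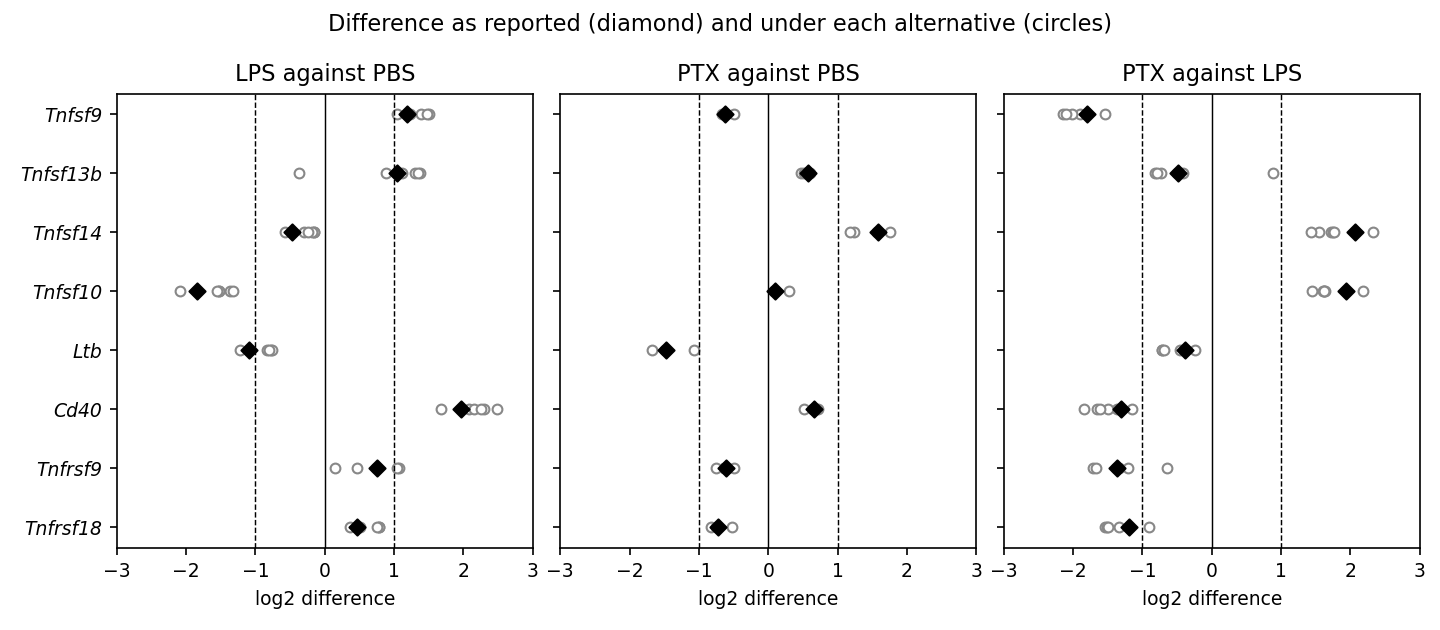
Log2 differences of the 8 genes in the 3 comparisons, as reported (diamonds) and under each alternative that gave a value (circles), with dashed lines at 2-fold. Most circles stay on the side of the diamond, and the circle of Tnfsf13b at -0.37 for LPS comes from the mean of its probe sets.

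Downstream of these receptors, a list of 40 adaptors, kinases, caspases and NF-kB factors was read, of which 33 were measured. Traf4 had a probe set but was under the measured level, and the other list genes that were not measured were not analysed here. After LPS 5 of the 33 were at least 2-fold higher (15.2%, against 6.5% of all measured genes) and 1 was lower (3.03% against 13.0%). After PTX 1 was higher (3.03% against 3.04%) and none lower (2.37% of all). Traf1, an adaptor of TNF receptors that is itself a target of NF-kB, read 404 (PBS), 1849 (LPS) and 721 (PTX), differences of 2.15 and 0.81. Mlkl, the executor of necroptosis, read 309, 878 and 825 and was higher after both stimuli, by 1.46 and 1.37. Ripk3, the kinase that activates Mlkl, read 1181, 488 and 637, lower than PBS on both stimulated arrays, by -1.25 and -0.88.

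Among the genes higher after LPS were 3 inhibitors. Cflar, which restrains the caspases recruited by death domain receptors, read 717 (PBS), 1940 (LPS) and 1076 (PTX). Tnfaip3, the deubiquitinase A20, read 1598, 3500 and 865, highest after LPS and lowest after PTX as for Tnfsf9. Nfkbia, the NF-kB inhibitor IkB alpha, read 7569, 15950 and 6659. Tnfaip3, Traf1 and Nfkbia were the 3 genes of the list at least 2-fold lower after PTX than after LPS (-2.00, -1.34 and -1.26), 9.09% of the list against 6.24% of all measured genes, and none was higher, against 13.7% of all. Ikbkg, the scaffold of the IkB kinase complex, had the lowest difference after PTX, at -0.96. NF-kB subunits and their kinases were closer to PBS, with Relb at 0.17 for LPS and 0.31 for PTX, Nfkb2 at 0.38 and -0.11 and Map3k14, a kinase of the noncanonical branch, at 0.11 and 0.08. The median of the list was 0.17 for LPS and 0.04 for PTX, against -0.08 and 0.01 over all measured genes.

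**Figure D5:**
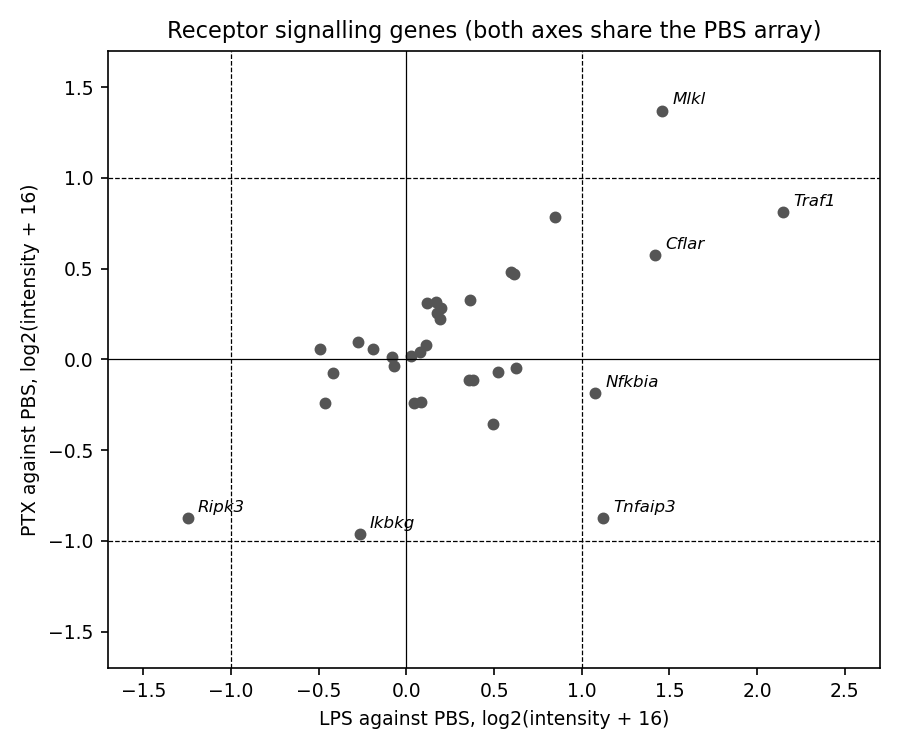
Differences of the 33 measured receptor signalling genes from PBS, LPS on the horizontal and PTX on the vertical axis, both on the log2(intensity + 16) scale, with dashed lines at 2-fold. The axes share the PBS array, so the slope of the cloud is no result. Traf1 lies farthest right at 2.15, Mlkl passes the line on both axes, and Tnfaip3 lies right of the vertical line and below 0 for PTX.

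Read as ligand and receptor pairs, both partners were measured for Tnfsf9 with Tnfrsf9, Tnfsf4 with Tnfrsf4, and Tnfsf13b with Tnfrsf13b. The same holds for Tnfsf14 with Tnfrsf14 and Ltbr, and for Ltb with Ltbr. There Tnfsf14 was under the measured level on the LPS array (55.7) and Ltb on the PTX array (62.3). Lta, the partner of Ltb, was not measured. For Tnfsf9 and Tnfrsf9 both partners read highest after LPS and lowest after PTX by the probe sets used. The dimmest probe set of Tnfrsf9 had the reverse order (78.3, 19.2 and 89.5 on the PBS, LPS and PTX arrays). The order of the receptor is therefore not settled. For Tnfsf4 and Tnfrsf4 they diverged after LPS, at 0.54 for the ligand and -0.67 for the receptor. Tnfsf14 was higher after PTX by 1.59 while its receptors differed by 0.18 (Tnfrsf14) and 0.06 (Ltbr). For BAFF and TACI the ligand differed by 0.57 and the receptor by -0.80 after PTX. For Tnfsf10 the receptor with a death domain was not measured while both decoy receptors were. Of Cd70 with Cd27 neither partner was measured, and of Tnfsf8 with Tnfrsf8, Fasl with Fas and Tnfsf11 with Tnfrsf11a 1 partner was.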

How the data were processed

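The deposited table holds 1 probe set intensity per array on a linear scale. Per the labels' protocols, biotinylated cRNA was made from 3 µg of total RNA for Affymetrix arrays. How probes were summarized, background-corrected and scaled is not given in the sources used here. Intensities were used as deposited, with a pseudocount of 16 before log2. Gene names came from the platform annotation, checked through gene identifiers against RefSeq (GRCm38.p6), which changed no member's name. With 1 array per group no test was run.

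Members and lists were chosen with earlier results of these data known. The genes named are all members by role, with every array's intensity for those at least 2-fold from PBS, and up to 4 genes of the signalling list with the largest differences in each comparison, plus others that show its spread. Marker lists of dendritic cells, T cells, B cells, NK cells, neutrophils, macrophages and stromal cells were read too. Alternatives covered the pseudocount (1 and 64), scaling, the probe set rule and the filter. The code recovered known differences put on simulated data. Python 3.11.15, numpy 2.4.6 and pandas 2.3.3 were used.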

Additional observations from a re-analysis of the deposited data

How the results depend on the processing

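No paired analysis was possible because each group has 1 array, and no replicate could be left out. There were 13 differences of family genes of at least 2-fold. Of these, 9 stayed so in the same direction under every alternative that gave a value, the demand on every measured probe set aside. The exceptions were, in LPS against PBS, Ltb (a pseudocount of 64 and 3 scalings) and Tnfsf13b (0.89 with a pseudocount of 64, and reversed to -0.37 with the mean of measured probe sets, since its other probe set reads the other way), and, in PTX against LPS, Tnfrsf18 (a pseudocount of 64) and Tnfrsf9 (the mean of probe sets). Among the 9, the demand on every measured probe set was not met by Tnfsf10 in LPS against PBS, where another probe set differed by -0.80. Nor was it met by Tnfsf14, whose second probe set differed by 0.77 in PTX against PBS and by 0.79 in PTX against LPS. In LPS against PBS the family's count of higher genes was 5 with median centring and with the 75th percentile set equal, against 3. The count of lower genes was 1, against 2, with a pseudocount of 64, with each of the 3 scalings, with the filter at the 75th percentile (14 genes measured) and where every probe set had to be 2-fold. In PTX against PBS the last demand left 0 higher genes and the stricter filter 0 lower ones. In PTX against LPS that demand left 1 higher gene, and the lower genes numbered 8 with median centring and with the 75th percentile, and 2 without probe sets that can match several transcripts. The family median in LPS against PBS was 0.37 with median centring, 0.34 with quantile normalization, 0.34 with the 75th percentile and -0.11 with the mean of probe sets. In PTX against LPS it was -0.53, -0.52 and -0.49 with those scalings, 0.0204 with no filter and -0.30 with the stricter filter. In the signalling list the mean of probe sets left 3 higher genes after LPS, and median centring and the 75th percentile left 0 lower. After PTX quantile normalization gave 3 lower genes and the mean of probe sets 1, and PTX against LPS gave 7 lower genes with median centring and 6 with the 75th percentile. Apart from scaling, filter and probe set rule as their own constructions, the cause was not tested. Dim readings, under 78.9, limit the size of the differences of Tnfsf10, Tnfsf14 and Ltb.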

Other observations

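Tnfsf12 (TWEAK) and Tnfsf13 (APRIL) share probe sets with their readthrough transcript Tnfsfm13 in the platform annotation and so were not among the genes above. The probe set annotated to all 3 read 552 (PBS), 395 (LPS) and 898 (PTX), and the one annotated to Tnfsf12 and the readthrough read 476, 314 and 569. Both were lowest after LPS and highest after PTX, with differences of 0.69 and 0.25 for PTX against PBS, and the first was at least 2-fold higher after PTX than after LPS (1.15). Which of the transcripts they measure cannot be told apart here. Tnfsf15, Tnfsf18 and Tnfrsf26 were not analysed here.

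The 7 macrophage markers, all measured on every array, summed to 20334 (PBS), 33120 (LPS) and 34120 (PTX). The sum was above PBS after both stimuli, whereas C1qa and C1qb were below PBS after LPS (-0.65 and -0.63). NK cell markers summed to 344, 370 and 449 with 2 of 5 measured, and stromal cell markers to 270.2, 308 and 280.4 with 1 of 6 measured. The part of such cells in the family's values was not tested.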
